A study of Homo sapiens with 26 samples.

Results

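The chromosome 19 zinc finger genes described here are the protein-coding genes of chromosome 19 whose names begin with ZNF or ZFP. They were selected on annotation and on a minimum level, at least 10 counts in 3 or more of the 26 libraries, and 219 of the 254 annotated genes of this kind passed, among 58735 genes in all. RNA was sequenced from 2 lines of human bronchial epithelial cells. For polarized samples the cells were grown on Transwell supports, with 2 Transwells pooled for each sample. The WT line, 16HBE14o-, carries wild-type CFTR, and the CF line, 16HBEge, carries the DeltaF508 CFTR genotype. CFTR is the chloride and bicarbonate channel that is defective in cystic fibrosis. Polarized cells of each line were kept for 7 days in medium with glucose at 5.5 mM, here called normal, or at 17.5 mM, called high. This gave 6 WT normal glucose, 5 WT high glucose, 6 CF normal glucose and 6 CF high glucose libraries. A further 3 WT libraries came from cells in normal glucose that were not polarized. Those cells were grown another way, so polarization and the way of culture cannot be told apart. Each genotype is represented by 1 line, so the line and the CFTR genotype cannot be told apart. No label says whether the samples of a group are separate cultures, and p-values then measure only the spread between these samples, which may be technical.

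Most C2H2 zinc finger genes of chromosome 19 arose by tandem duplication and lie in clusters of close relatives. The typical product joins a row of DNA-binding fingers to a KRAB domain. The KRAB domain recruits the scaffold protein TRIM28, which brings in the histone methyltransferase SETDB1 and heterochromatin proteins. Many of these proteins bind and silence transposable elements, and as a family they are expressed at low levels in many tissues. The authors' family column assigned 211 of the 219 members to the C2H2 class. The longest open reading frame of the annotated transcripts held a median of 12 C2H2 fingers per member, and a KRAB A box pattern was matched in 176 of 219 members. ZFP36, which encodes the mRNA-decay factor tristetraprolin, entered by its name alone and held 0 C2H2 fingers.

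Total counts ranged from 14658319 to 20413839 per library. All 12 epithelial markers on the list had at least 10 counts in all 26 libraries, and the leukocyte markers summed to 0.7 to 2.38 CPM, the count divided by the library size and scaled alike in all libraries. The fibroblast list summed to 27.1 to 45.6 CPM in polarized WT, 15.9 to 31.8 in CF and 14.4 to 15.6 in not polarized libraries, with 1 of its 8 genes at 10 counts in all libraries. The endothelial list summed to 20.2 to 30.4 CPM in polarized WT, 31.7 to 62.4 in CF and 46.6 to 50.9 in not polarized libraries, with 2 of 4 such genes. No marker was at 0 in all libraries, and the part of these lists in the results below was not tested. Before the group comparisons, the libraries were found to separate by their number. Across the groups compared, deviations from the group means correlated positively between libraries of the same set, 1 to 3 or 4 to 6, even where their numbers differed (mean r 0.194 to 0.291 in the 4 comparisons among polarized cells). The labels do not say what the numbers stand for. Each comparison among polarized cells was therefore also run within libraries 1 to 3 and within libraries 4 to 6. WT high glucose has no library 6, so its second set is smaller. The polarization comparison was also run with WT normal glucose libraries 1 to 3 as controls, and not with 4 to 6.

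The members were weakly expressed. On the length-adjusted FPKM scale, the median of the members' mean levels over the 26 libraries was 2.01, against 5.75 for the 13549 protein-coding genes that passed the same minimum. ZNF146, a short protein made almost wholly of fingers, had the highest mean level at 35.0 FPKM. ZFP36 and ZNF428 followed at 14 FPKM each, then ZNF865 at 13.7 and ZNF787 at 12.8. ZNF91, which is known to repress SVA retroelements, had 3.98 FPKM. ZNF93, known to bind LINE-1 elements, did not pass the minimum, with at most 3 counts in a library. Summed over members, the level in WT normal glucose was 631 ± 13.0 FPKM (SD, n = 6), in WT high glucose 616 ± 15.4 (n = 5), in CF normal glucose 589 ± 26.7 (n = 6), in CF high glucose 580 ± 9.06 (n = 6) and in not polarized WT cells 571 ± 2.75 (n = 3). The CF libraries in high glucose lay between 570 and 591 FPKM, below all 5 WT libraries in high glucose (602 to 639), whereas in normal glucose the CF libraries, the lowest at 564, overlapped those of WT, the lowest at 616. As a share of counts, not adjusted for gene length, the lines did not overlap at either level. In normal glucose members took 0.279% to 0.313% in CF and 0.325% to 0.346% in WT libraries. In high glucose they took 0.284% to 0.313% and 0.329% to 0.343%.

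The minimum itself bears on the line comparison. Of the 219 members, 191 had 10 counts in all 26 libraries. A further 19 passed only through WT, with 10 counts in 3 or more polarized WT libraries and in fewer than 3 of the 12 CF libraries. ZNF578 is outside these 19, because it needed a not polarized WT library to pass. Of all members, 18 had 10 counts in no CF library, ZNF578 among them. A member that passed only through WT had to be lower in CF, so its direction is a description and not a result. ZNF730 and ZNF578 stood just inside the minimum, with 3 libraries of at least 10 counts and medians of 1.5 and 2.5 counts. ZNF540 and ZNF671 stood just outside it, with 2 such libraries and medians of 4 and 5.5 counts. The low-count filter of the fit across all genes kept 214 members. The 5 that were not tested, ZNF439, ZNF253, ZNF730, ZNF578 and ZNF582, are given by their counts alone.

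In CF cells many more members were lower than higher in comparison with WT cells. In normal glucose, 58 of 214 members were called lower and 3 higher (edgeR quasi-likelihood test, adjusted p below 0.05 over all genes). Over the 16338 genes tested, 24.4% were called, 13.0% lower and 11.4% higher while 28.5% of members were called, 27.1% lower and 1.4% higher. The 214 include 15 members that passed only through WT and so had to be lower in CF. The members' shares called and called lower, here and in high glucose, therefore follow in part from the minimum. In high glucose, with other libraries of both lines, 54 members were called lower and 5 higher, against 19.9% of all genes called, 10.6% lower and 9.35% higher. The median log2 fold change of the members was -0.13 in normal and -0.12 in high glucose, beside 0.00 and 0.01 over all genes. The 3 members called higher in normal glucose were ZNF114, ZNF581 and ZNF175. The 5 called higher in high glucose were ZNF114, ZNF581, ZNF428, ZNF837 and ZNF793. The ZNF428 call (0.26 ± 0.08) was lost in each set of libraries alone, without the low-count filter, without CF high glucose library 1, 3 or 6 and without WT high glucose library 3 or 4 (adjusted p 0.0551 to 0.0844). ZNF175, ZNF837 and ZNF793, and below the genes named for their place beside others, were chosen after their values were seen.

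At both glucose levels together, 50 members were called lower and 2 higher, and none changed direction. Over all genes the shares were 8.02% lower and 6.88% higher at both levels. Among the 199 tested members that had 10 counts in 3 or more libraries of each line, 35 were lower at both levels and 2 higher, with a median of -0.10 at each level. Other protein-coding genes of chromosome 19 gave 59 lower and 42 higher of 813. Protein-coding ZNF or ZFP genes of other chromosomes gave 23 lower and 11 higher of 242. Protein-coding genes within the zinc finger clusters that are not named ZNF or ZFP, ZSCAN18 among them, gave 6 lower and 7 higher of 104. The shares are set side by side and their difference was not tested.

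**Figure D1:**
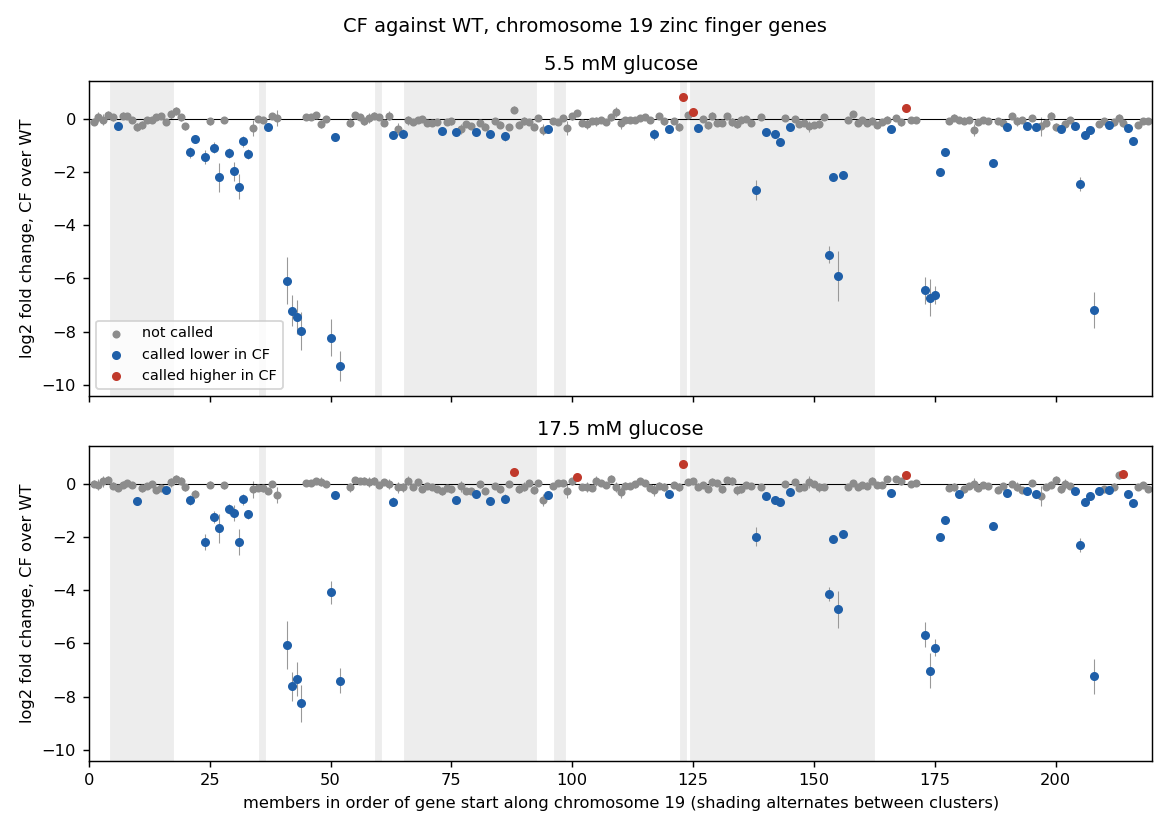
Log2 fold change of CF over WT (vertical axis, bars show the standard error) for the tested members in order of gene start along chromosome 19 (horizontal axis), at 5.5 mM glucose (6 CF and 6 WT libraries) and 17.5 mM glucose (6 CF and 5 WT libraries). Blue points are called lower in CF, red points higher and grey points neither. Most members sit near 0, and the points at -4 and below fall in 3 of the 16 clusters.

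The 50 lower members are grouped here by the size of the difference. For 12 members the fitted log2 fold change was -4 or below at both levels, where 0.251% of all genes tested were that low. Fitted values of genes at 0 counts depend on the fit, and the count bounds given below for normal glucose do not reach 16-fold for ZNF682 and ZNF665 (at least 15-fold and 13.6-fold). This limit was set after the values were seen, and all 12 are among the members that passed only through WT, so their number is a description. The next lowest member by the smaller of its changes at the 2 levels, ZNF418, was at -2.45 ± 0.25 (SE) in normal and -2.29 ± 0.26 in high glucose. Untested members lay between these sizes: ZNF439 had count ratios of 10.4 (3.28 to 52.8) and 5.52 (2.86 to 11.7), and ZNF253 is given below. A further 13 members were lower by at least 2-fold at both levels, and the remaining 25 of the 50 by less. Summed over the 12 members, a WT polarized library held 505 to 622 counts, a not polarized WT library 350 to 374 and a CF library 2 to 16.

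The 12 members at or near 0 in CF were ZNF682, ZNF90, ZNF486, ZNF85, ZNF493 and ZNF43 on the short arm, ZNF415 and ZNF665, then ZNF583, ZNF471 and ZFP28, and finally ZNF135 near the end of the long arm. ZNF85 had 17 to 56 counts in WT normal glucose libraries (median 30.5) and 38, 46, 36, 31 and 47 in WT high glucose. The not polarized WT libraries had 13, 24 and 20. All 12 CF libraries had 0, so no CF library overlapped any WT library. A floor of 3 counts over the 6 CF libraries of a group puts ZNF85 at least 57.8-fold lower in CF in normal glucose and at least 74.3-fold lower in high glucose. ZNF90, ZNF486, ZNF682, ZNF471 and ZNF135 were likewise at 0 in all 12 CF libraries.

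Their WT levels were low and their bounds follow from that. ZNF90 had 14 to 27 counts in WT normal glucose and 26, 25, 20, 26 and 31 in WT high glucose, and was at least 33.5-fold and 48-fold lower in CF. ZNF486 had 19 to 33 and 12 to 32 counts and was at least 39.8-fold and 39.4-fold lower. ZNF135 had 11 to 29 and 18 to 21 counts and was at least 33.2-fold and 36.8-fold lower. For these 3 genes the 2 glucose levels thus gave bounds of the same order. ZNF471, with 10 to 19 and 11 to 22 counts, was at least 24-fold and 31.5-fold lower. ZNF682 had 5 to 14 and 4 to 12 counts and was at least 15-fold and 16.1-fold lower.

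The other 6 kept a few CF counts. ZFP28, the most highly expressed of the 12, had 170 to 237 counts in WT normal glucose (median 194), 160 to 211 in WT high glucose, and 115, 124 and 130 in not polarized cells. CF libraries had 0 to 4 in normal and 0 to 5 in high glucose. The ratio of WT to CF was 104 (95% exact interval 56.5 to 218) in normal and 75.1 (44.5 to 138) in high glucose, intervals that cover counting error only. ZNF43 had 65 to 117 counts in WT normal glucose and 0 in all 6 CF libraries there, at least 143-fold lower. In high glucose 1 CF library had 2 counts and the other 5 had 0, and the ratio was 231 (63.6 to 1920). ZNF583 had 31 to 58 WT counts in normal glucose and 0 to 1 in CF, with a ratio of 117 (32.2 to 974). ZNF415 was never at 0: CF libraries had 1 to 3 counts in normal and 1 to 12 in high glucose, against 55 to 80 and 63 to 103 in WT, which gave ratios of 36.6 (19.7 to 76.8) and 17.8 (12.1 to 27.1). ZNF493 had 31 to 49 WT counts in normal glucose and 0 in all 6 CF libraries, at least 67.9-fold lower, and in high glucose 30 to 48 WT counts and 0 to 6 in CF, a ratio of 17.9 (10 to 35.3). ZNF665 had 1 to 11 counts in WT normal glucose, so its highest CF library, with 2 counts in high glucose, exceeded the lowest WT library of the other glucose level.

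**Figure D2:**
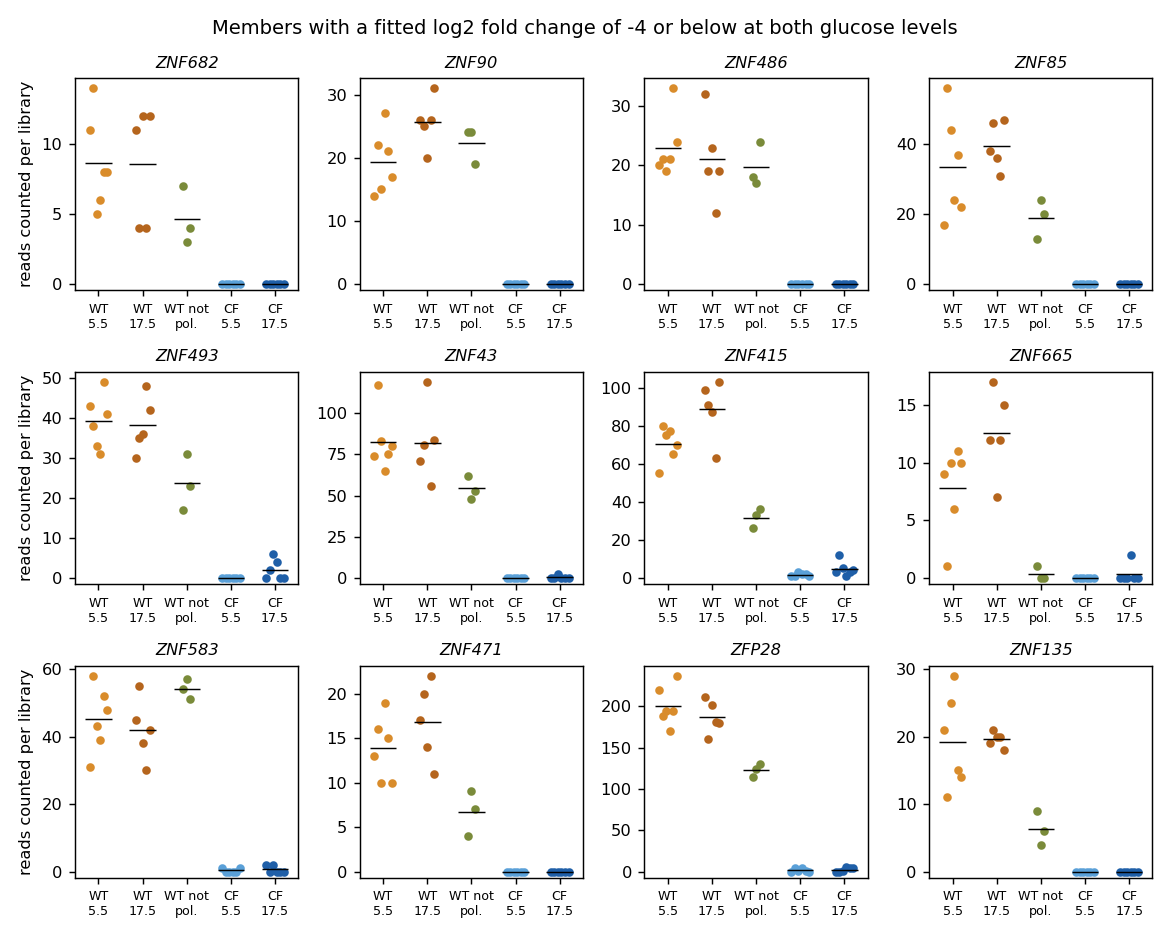
Reads counted per library (vertical axis, linear) for the 12 members with a fitted log2 fold change of -4 or below at both glucose levels, by group (horizontal axis, glucose in mM, "not pol." for not polarized). Each point is 1 library and the line is the group mean. CF libraries lie at 0 to 12 counts in every panel. The not polarized WT libraries lie above the CF libraries for 11 of the 12 members, and ZNF665 is the exception with 1, 0 and 0 counts.

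The 50 lower members are described next by their position, and whether their share differed between places was not tested. Splitting the annotated genes wherever starts were more than 1 Mb apart gave 16 clusters. No member of the cluster at 7.1 to 9.8 Mb (13 members) was lower at both levels, and 1 of 24 was in the cluster at 43.5 to 45.1 Mb. The cluster at 11.5 to 12.6 Mb had 9 of 17 tested members lower, the cluster at 19.7 to 24.1 Mb 7 of 21, the cluster at 36.2 to 37.8 Mb 4 of 27, the cluster at 51.6 to 53.6 Mb 9 of 37 and the cluster at 55.5 to 58.5 Mb 18 of 56. The cluster at 34.7 to 35.0 Mb had 1 of 5. Without the members that passed only through 1 line, the counts were 7 of 15 at 11.5 to 12.6 Mb, 1 of 15 at 19.7 to 24.1 Mb, 6 of 34 at 51.6 to 53.6 Mb and 14 of 52 at 55.5 to 58.5 Mb, and the other clusters named here kept their counts. The cluster at 55.5 to 58.5 Mb also holds 18 tested protein-coding genes that are not named ZNF or ZFP. Of these other genes, 3 were lower at both levels and 1 was higher, and they include ZSCAN18, a zinc finger gene given below. The cluster at 11.5 to 12.6 Mb held 6 of the 13 members that were lower by 2-fold to 16-fold (ZNF69, ZNF433, ZNF878, ZNF563, ZNF442 and ZNF443) and none of the 12 near 0, whereas the cluster at 19.7 to 24.1 Mb held 6 of the 12 and none of the 13.

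In the cluster at 19.7 to 24.1 Mb, genes at or near 0 in CF stood on either side of genes that did not differ. ZNF682, ZNF90, ZNF486 and ZNF85 followed each other over 954 kb. Next along the chromosome came ZNF430, ZNF714, ZNF431, ZNF708 and ZNF738, none of which was called at either level. After them came ZNF493, ZNF100 and ZNF43. ZNF430 had 18 ± 1.76 CPM (SD, n = 6) in WT and 18.8 ± 2.33 (n = 6) in CF in normal glucose, a log2 fold change of 0.07 ± 0.08 (SE, adjusted p = 0.633). ZNF714 had 44.8 ± 3.09 and 46.5 ± 7.16 CPM, a log2 fold change of 0.06 ± 0.08 (adjusted p = 0.674). ZNF100, between ZNF493 and ZNF43, was lower by -0.66 ± 0.14 in normal and -0.41 ± 0.14 in high glucose. ZNF91, farther along, was not called (0.16 ± 0.08, adjusted p = 0.172, and 0.14 ± 0.08, adjusted p = 0.263). Of the untested members of this cluster, ZNF730 had 42 and 46 counts summed over WT libraries in normal and high glucose and 0 in all 12 CF libraries, at least 12.1-fold and 17.3-fold lower. ZNF253 had 48 and 58 against 5 and 7, ratios of 8.32 (3.33 to 26.8) and 9.32 (4.25 to 24.2).

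The 300 bases around the starts of 4 of these neighbours are shown, from ZNF85 (0 in CF) through ZNF430 and ZNF714 (called at neither level) to ZNF493 (0 in CF normal glucose), because genes with and without a called difference have starts of similar sequence. ZNF135, the last of the 12 on the chromosome, is shown for contrast. The sequences are from RefSeq, build GRCh38.p14, 5′ to 3′ along each gene's own strand, from 250 bases before to 50 after the start, and capitals mark CpG dinucleotides.
ZNF85, chr19:20923001-20923300, plus strand: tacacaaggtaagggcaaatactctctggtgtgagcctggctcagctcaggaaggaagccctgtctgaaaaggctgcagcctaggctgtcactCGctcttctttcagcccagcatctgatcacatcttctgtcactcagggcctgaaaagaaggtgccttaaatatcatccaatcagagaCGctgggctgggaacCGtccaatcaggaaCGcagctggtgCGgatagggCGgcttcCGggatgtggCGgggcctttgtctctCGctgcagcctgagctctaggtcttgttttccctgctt
ZNF430, chr19:21020407-21020706, plus strand: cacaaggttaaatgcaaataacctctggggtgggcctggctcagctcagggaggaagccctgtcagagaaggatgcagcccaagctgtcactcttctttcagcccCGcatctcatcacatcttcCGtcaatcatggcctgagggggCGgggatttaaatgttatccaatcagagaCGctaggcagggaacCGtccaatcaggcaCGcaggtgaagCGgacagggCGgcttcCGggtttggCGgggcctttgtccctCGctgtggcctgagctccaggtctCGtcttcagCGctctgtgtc
ZNF714, chr19:21081953-21082252, plus strand: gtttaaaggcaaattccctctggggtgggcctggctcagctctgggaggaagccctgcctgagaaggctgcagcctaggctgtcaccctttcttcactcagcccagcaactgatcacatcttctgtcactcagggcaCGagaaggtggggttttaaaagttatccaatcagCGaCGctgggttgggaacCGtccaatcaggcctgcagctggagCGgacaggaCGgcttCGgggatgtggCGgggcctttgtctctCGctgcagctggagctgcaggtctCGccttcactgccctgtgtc
ZNF493, chr19:21396883-21397182, plus strand: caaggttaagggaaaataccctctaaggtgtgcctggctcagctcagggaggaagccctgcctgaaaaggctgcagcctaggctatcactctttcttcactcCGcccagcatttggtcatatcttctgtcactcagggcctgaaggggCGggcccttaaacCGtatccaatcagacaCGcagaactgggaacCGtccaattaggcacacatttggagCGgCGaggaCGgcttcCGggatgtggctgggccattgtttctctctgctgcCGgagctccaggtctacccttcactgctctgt
ZNF135, chr19:58058989-58059288, plus strand: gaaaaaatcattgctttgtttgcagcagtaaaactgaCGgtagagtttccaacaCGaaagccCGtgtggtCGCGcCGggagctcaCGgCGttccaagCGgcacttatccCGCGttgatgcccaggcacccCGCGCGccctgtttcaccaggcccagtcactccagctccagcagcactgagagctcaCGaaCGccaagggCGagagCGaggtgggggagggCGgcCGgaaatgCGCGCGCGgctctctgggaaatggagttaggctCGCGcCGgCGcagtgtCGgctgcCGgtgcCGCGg
In a global alignment, ZNF85 was identical to ZNF430 over 80.8% of alignment columns, to ZNF714 over 80.7% and to ZNF493 over 80.3%. ZNF430 and ZNF714 were identical over 81.6%, and ZNF135 matched the other 4 over 45.3% to 48.7%. The window held 9 CpG dinucleotides in ZNF85 and 10 in ZNF493, against 13 in ZNF430 and 10 in ZNF714, where the median over all 35116 promoters of the table was 14. ZNF135 held 32. The ratio of observed to expected CpG was 0.397 for ZNF85, 0.426 for ZNF493, 0.516 for ZNF430, 0.384 for ZNF714 and 1.04 for ZNF135. Low and high CpG content thus both occurred among genes at 0 in CF. A RefSeq start within 1 kb of the deposited gene start was at hand for 162 of the 219 members but for only 7 of the 12, so a comparison of CpG content between the 12 and the other members is void.

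In the cluster at 51.6 to 53.6 Mb the lower members also stood next to each other. ZNF415, ZNF347, ZNF665 and ZNF677 followed each other over 147 kb and all 4 were lower. ZNF347 had 29 ± 2.31 CPM (SD, n = 6) in WT normal glucose and 6.4 ± 1.14 (n = 6) in CF, and 31 ± 1.73 (n = 5) and 7.35 ± 0.30 (n = 6) in high glucose. Its log2 fold change was -2.18 ± 0.09 (SE) and -2.08 ± 0.09 (adjusted p = 1.25e-15 and 4.89e-15), and no CF library reached a WT library. ZNF677 had 35.6 ± 3.83 and 8.2 ± 2.42 CPM in normal glucose and changed by -2.12 ± 0.13 and -1.87 ± 0.13. ZNF160 and ZNF845, the members on either side, were not called at either level (0.06 ± 0.10 and -0.03 ± 0.12 in normal glucose). ZNF347 and ZNF415 overlap on the same strand, so reads from their shared part cannot be told apart.

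Within the cluster at 55.5 to 58.5 Mb, ZNF583, ZNF471, ZFP28, ZNF470 and ZNF71 were all lower over 229 kb. The first 3 were at or near 0 in CF. ZNF470 had 11.2 ± 2.43 CPM in WT (n = 6) and 2.82 ± 0.427 in CF (n = 6) in normal glucose, -1.99 ± 0.15 at each glucose level. ZNF71 had 15.4 ± 1.29 and 6.45 ± 0.315 CPM, -1.25 ± 0.09 in normal and -1.36 ± 0.09 in high glucose. ZNF582, the untested neighbour of ZNF583, had 64 and 40 WT counts and 0 in all 12 CF libraries, at least 18.5-fold and 15-fold lower. ZNF582-AS1, an RNA gene that overlaps ZNF583, had 44 WT counts and 0 CF counts. ZNF135 overlaps ZSCAN18, a zinc finger gene of the opposite strand that also fell, from 908 counts over the WT libraries to 2 over the CF libraries. Without a stated strand setting the reads of the overlapping part cannot be assigned. ZNF329, the next member after ZNF135, was at -0.20 ± 0.09 (adjusted p = 0.106) in normal glucose and -0.27 ± 0.09 (adjusted p = 0.0323) in high glucose.

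The 2 members higher in CF at both levels were outside these stretches. ZNF114 had 22.3 to 29.4 CPM (median 25.5) in WT normal glucose and 40.7 to 49.3 (median 44.5) in CF. In high glucose WT libraries had 23.1 to 31.2 CPM and CF libraries 40.6 to 51.6, so the lines did not overlap at either level. Its log2 fold change was 0.81 ± 0.08 in normal and 0.77 ± 0.09 in high glucose (adjusted p = 2.18e-08 and 1.42e-07). ZNF581, a short finger protein with 4 fingers and no KRAB match, rose from 14.9 ± 1.53 to 20.1 ± 1.87 CPM in normal glucose (0.43 ± 0.09, adjusted p = 6.95e-04). In high glucose its difference was 0.33 ± 0.10 (adjusted p = 0.0131), and the call was lost within libraries 1 to 3 alone and without WT high glucose library 4 or 5 (adjusted p 0.0514 to 0.489).

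The line comparison was repeated in each set of libraries over the 199 members with 10 counts in 3 or more libraries of each line. Within libraries 1 to 3 alone, 23 of them (11.6%) were lower in CF at both glucose levels, beside 6.92% of all genes tested. Within libraries 4 to 6 alone, 27 (13.6%) were, beside 8.79% of all genes, and 19 members were in both lists. With the members that passed only through WT the counts were 37 and 41. The 12 had a median of 15 fingers (range 9 to 19), the other 38 lower members 14 (7 to 29) and the 162 members not called the same way at both levels 12 (0 to 31). A KRAB A box was matched in 10 of the 12, 33 of the 38 and 127 of the 162.

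A list of 40 chromatin genes, KRAB partners among them, was also counted. It is wider than the direct KRAB partners and includes DNA methyltransferases and TET genes. Of the 40, 4 were higher and 3 lower in CF in normal glucose (17.5% called, beside 24.4% of all genes). In high glucose 1 was higher and 3 lower (10% called, beside 19.9%). TRIM28, the KRAB scaffold, had 431 ± 28.2 CPM in WT and 409 ± 43.8 in CF in normal glucose (-0.07 ± 0.07, adjusted p = 0.48). SETDB1, its histone methyltransferase, had 36.7 ± 2.86 and 36.4 ± 2.95 CPM (-0.01 ± 0.08, adjusted p = 0.943). TRIM24, a relative of TRIM28 that reads histone marks, rose, with 40.1 ± 4.47 CPM in WT and 80.5 ± 4.64 in CF (1.00 ± 0.07, adjusted p = 9.23e-12, and 0.99 ± 0.07 in high glucose). MTA2, a NuRD complex subunit, was lower at both levels (-0.35 ± 0.05 and -0.24 ± 0.06). DNMT3B, a de novo DNA methyltransferase, was lower in normal glucose (-0.36 ± 0.09, adjusted p = 0.00515) and did not pass in high glucose (-0.24 ± 0.10, adjusted p = 0.0931).

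High glucose moved few members. In WT cells 1 of 214 members was called, lower, beside 2.96% of all genes (1.49% higher and 1.47% lower). In CF cells 3 members were called higher and 3 lower, beside 8.41% of all genes (4.27% higher and 4.14% lower). The members' medians were -0.01 in WT and 0.01 in CF. The WT and CF glucose comparisons share no libraries.

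ZNF579 was the member called in each line. In WT it had 28.9 to 34.5 CPM in normal glucose (median 29.5) and 23.4, 22.2, 21.7, 25.6 and 25.5 in high glucose, with no overlap (-0.37 ± 0.09 SE, adjusted p = 0.0249). The CF call was lost without CF high glucose library 1, 2, 3, 4 or 6 or CF normal glucose library 4, 5 or 6. In CF it had 23.2 to 34.8 and 21.8 to 24.4 CPM, which overlapped (-0.29 ± 0.09, adjusted p = 0.0418). The CF difference was -0.04 (adjusted p = 0.856) within libraries 1 to 3 and -0.53 (adjusted p = 2.63e-05) within libraries 4 to 6. In WT it was -0.37 within libraries 1 to 3 and -0.32 within libraries 4 to 6, both called. The WT call was lost without WT high glucose library 1, 2 or 3 or WT normal glucose library 4 or 6 (adjusted p 0.0634 to 0.0972).

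Of the other CF calls, ZNF121 was the lowest in p. It had 14.9 to 18.8 CPM (median 15.8) in CF normal glucose and 10.9 to 14.6 (median 11.9) in CF high glucose, with no overlap (-0.40 ± 0.09, adjusted p = 0.00392). Its change was -0.52 within libraries 1 to 3 and -0.29 within libraries 4 to 6, where it did not pass (adjusted p = 0.0939). ZNF780B had 14.5 to 22.2 and 11.1 to 15.2 CPM (-0.36 ± 0.10, adjusted p = 0.0167), with -0.62 in libraries 1 to 3 and -0.12 (adjusted p = 0.531) in libraries 4 to 6. ZNF570 had 3.91 to 5.64 and 5.99 to 7.23 CPM and did not overlap (0.46 ± 0.12, adjusted p = 0.0165). That call was lost in libraries 1 to 3 alone (0.38, adjusted p = 0.142) and without CF normal glucose library 6 (adjusted p = 0.0507).

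The remaining 2 calls were of members near the limit of counting. ZNF563 had 0 to 0.667 CPM in CF normal glucose and 0.552 to 1.49 in CF high glucose, 33 and 86 counts in all (1.26 ± 0.38, adjusted p = 0.0358). The call was lost in each set alone (adjusted p = 0.148 and 0.0694) and without any 1 of 6 CF libraries, namely high glucose 1 or 3 or normal glucose 1, 3, 4 or 5. ZNF493, at 0 in all 6 CF normal glucose libraries, had 0, 2, 6, 4, 0 and 0 counts in CF high glucose (adjusted p = 0.0344). The call rests on 12 counts in 3 libraries, and it was lost without any of these 3 (libraries 2, 3 and 4), without CF normal glucose library 1, 2, 4, 5 or 6, and in each set alone (adjusted p = 0.072 and 0.188). WT libraries held 30 to 49 counts of ZNF493 at the same 2 glucose levels.

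**Figure D3:**
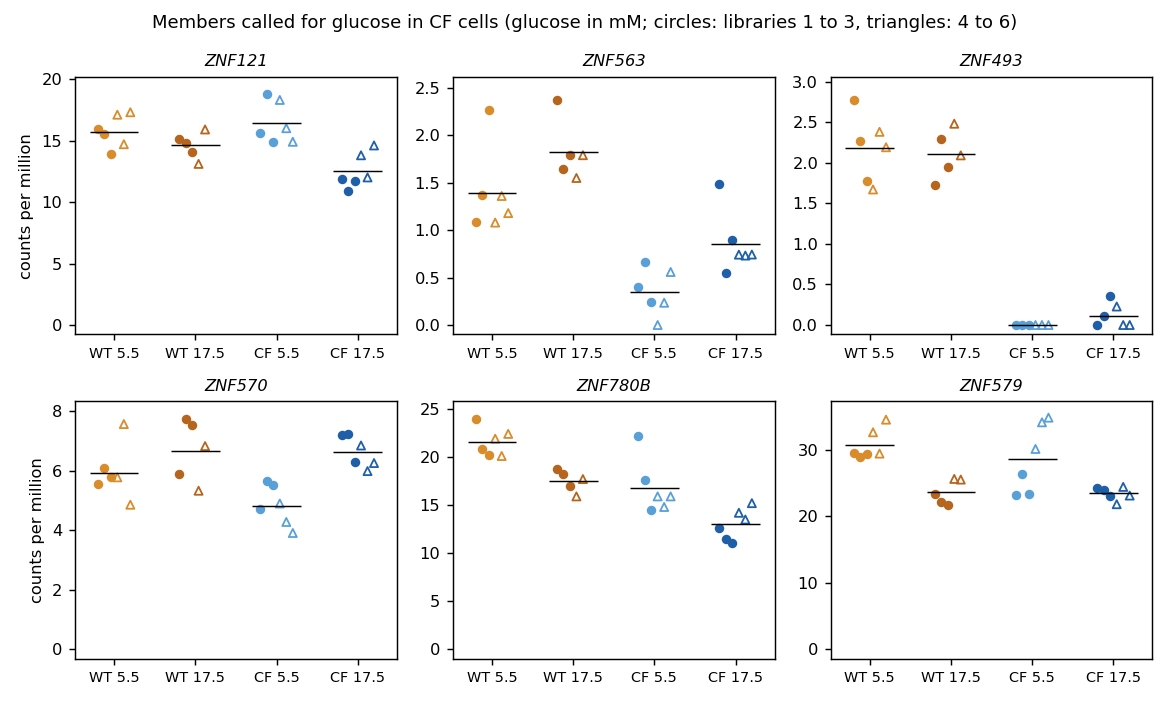
CPM (vertical axis, linear) of the 6 members called for glucose in CF cells, by line and glucose in mM (horizontal axis). Each point is 1 library, circles are libraries 1 to 3, open triangles libraries 4 to 6, and the line is the group mean. ZNF121 and ZNF570 do not overlap between CF groups, and for ZNF579 in CF normal glucose all 3 triangles (30.1 to 34.8) lie above all 3 circles (23.2 to 26.4).

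Within libraries 1 to 3, 0 members were called higher and 6 lower for glucose in CF cells (2.8% lower), beside 4.42% of all genes higher and 4.02% lower, and the members' median was -0.08. Within libraries 4 to 6, 13 were called higher (6.05%) and 6 lower (2.79%), beside 5.49% and 8.32% of all genes, and the median was 0.09. The difference between the sets was not tested. The difference of the glucose response between CF and WT was called for 0 of 214 members with edgeR, beside 0.0367% of all genes (6 genes). DESeq2 also gave 0. At an unadjusted p under 0.05 there were 6 members (2.8%), beside 6.79% of all genes. The lowest p was that of ZNF493 (4.14 ± 1.22, adjusted p = 0.321). Within libraries 4 to 6 alone ZNF302 was called (0.53 ± 0.14, adjusted p = 0.0248), and over all libraries it was not (0.22, adjusted p = 0.869); it is named after its value was seen.

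Cells that were not polarized had lower levels of many members than polarized WT cells in normal glucose. Of 214 members tested, 96 were lower and 6 higher in not polarized cells. Over the 16105 genes tested, 50.0% were called, 26% lower and 24.0% higher. The members' median log2 fold change was -0.30, beside -0.02 over all genes. ZNF or ZFP genes of other chromosomes gave 54 higher and 51 lower of 242 (median 0.00), a difference that was not tested. Other protein-coding genes of chromosome 19 gave 145 higher and 325 lower of 802 (median -0.19), and those within the zinc finger clusters 21 higher and 40 lower of 103 (median -0.25). The WT normal glucose libraries are the controls here and in the line and glucose comparisons as well. Mitochondrially encoded genes took 1.73% to 1.75% of counts in not polarized and 2.44% to 3.59% in polarized WT libraries, and ribosomal protein genes 4.47% to 4.67% and 2.75% to 4.18%, and their part in the result was not tested. With WT normal glucose libraries 1 to 3 alone as controls, 102 of 213 members were lower and 10 higher, and the median was -0.28. Calls over all genes also rose there, to 4505 lower and 4479 higher, from 4188 and 3859 with all 6 controls. In bulk RNA, fewer cells expressing a gene and less RNA per cell cannot be told apart.

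By position, the cluster at 51.6 to 53.6 Mb had 26 of 36 tested members lower and none higher (median -0.46). The cluster at 11.5 to 12.6 Mb had 9 of 17 lower (median -0.61), the cluster at 19.7 to 24.1 Mb 11 of 21 (median -0.41) and the cluster at 36.2 to 37.8 Mb 14 of 27 (median -0.32). In the cluster at 55.5 to 58.5 Mb, 18 of 57 were lower and 3 higher (median -0.12). In the cluster at 43.5 to 45.1 Mb, 7 of 24 were lower and none higher (median -0.20). The cluster at 7.1 to 9.8 Mb had 6 of 13 lower and none higher (median -0.21), and the cluster at 34.7 to 35.0 Mb 2 of 5 (median 0.06). Among the clusters named here, the one at 34.7 to 35.0 Mb had the median nearest 0, followed by the one at 55.5 to 58.5 Mb.

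ZNF320 was among the most reduced, with 1.41 ± 0.0945 CPM in not polarized (n = 3) and 3.79 ± 0.482 in polarized cells (n = 6), a log2 fold change of -1.43 ± 0.18 (SE, adjusted p = 2.33e-05). ZNF432 had 9.77, 9.41 and 10.4 CPM in the not polarized libraries and 23.5 to 26.8 in the polarized ones (-1.34 ± 0.09, adjusted p = 2.64e-08). ZNF836 had 2.22 to 2.78 and 4.18 to 6.76 CPM (-1.17 ± 0.19), and ZNF799 had 1.3 to 1.82 and 3.36 to 5.17 CPM (-1.35 ± 0.21). None of these 4 overlapped between the groups, and ZNF320, ZNF432 and ZNF836 lie in the cluster at 51.6 to 53.6 Mb. ZNF135 had the lowest fold change, -1.56 ± 0.43 (adjusted p = 0.00742), on 4 to 9 counts per not polarized library. ZNF91 was lower as well, 31.8 ± 0.801 against 40.6 ± 4.34 CPM (-0.35 ± 0.09, adjusted p = 0.00588).

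The 6 members called higher in not polarized cells were ZFP36, ZNF581, ZNF580, ZNF114, ZNF551 and ZNF507, the last named after its value was seen. ZFP36 had 51.5 to 56.3 CPM in not polarized and 24 to 29 in polarized cells (1.03 ± 0.08, adjusted p = 1.76e-07). It is the 1 member of these 6 that is not of the C2H2 class. ZFP36 did not differ between the lines beyond its spread (0.02 ± 0.07 in normal glucose, adjusted p = 0.884). ZNF581 and ZNF580, overlapping neighbours, had 22.7 ± 0.883 against 15.3 ± 1.59 CPM (0.57 ± 0.10) and 11.4 ± 1.10 against 7.94 ± 1.36 CPM (0.52 ± 0.14). ZNF114 had 34.9 ± 4.17 and 26.3 ± 2.78 CPM, and its libraries overlapped (0.41 ± 0.10, adjusted p = 0.00401). The calls of ZNF580 and ZNF551 were lost without not polarized library 1 (adjusted p = 0.0514) and library 3 (adjusted p = 0.092) in turn.

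**Figure D4:**
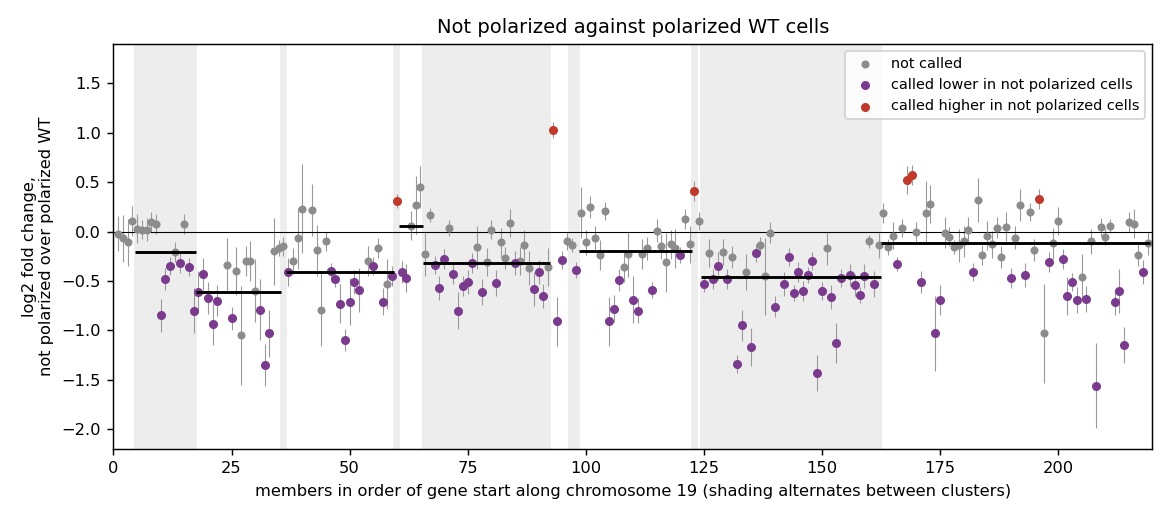
Log2 fold change of not polarized (3 libraries) over polarized WT cells in normal glucose (6 libraries) for the tested members (vertical axis, thin bars show the standard error) in order of gene start along chromosome 19 (horizontal axis). Purple points are called lower, red points higher, grey points neither, and thick lines are medians of clusters with 5 or more members. The medians lie between -0.61 and 0.06, and ZFP36 is the highest point at 1.03.

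Of the 40 listed chromatin genes, 11 rose and 5 fell in not polarized cells, 40% in all beside 50.0% of all genes, with a median of 0.09. TRIM28 was not called (0.12 ± 0.07, adjusted p = 0.183) and neither was SETDB1 (-0.15 ± 0.08, adjusted p = 0.122). The largest change of the 40 was that of MORC3, which was lower (-1.16 ± 0.09, adjusted p = 2.30e-07). RBBP7 and EHMT2 were higher (0.56 ± 0.05 and 0.42 ± 0.07), and TET3 was lower (-0.46 ± 0.10). UHRF1 and DNMT1, which act in the maintenance of DNA methylation, were higher (0.50 ± 0.06 and 0.32 ± 0.11). The de novo DNA methyltransferases DNMT3A and DNMT3B were lower (-0.38 ± 0.08 and -0.60 ± 0.10). The genes named here are part of the 16 called. For glucose, 0 of the 40 were called in WT, beside 2.96% of all genes, and 2 were higher and 5 lower in CF (17.5%, beside 8.41%). The higher ones were ATF7IP and MTA2, and the lower ones HELLS, MORC3, TET2, TET3 and UHRF1. TRIM28 and SETDB1 were not among them, and the difference in share was not tested.

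Of the 12 members near 0 in CF, the not polarized libraries held counts of all 12, although ZNF682 and ZNF665 were not tested there. ZNF682 had 7, 3 and 4 counts, and ZNF665 had 1 count in 1 of 3 libraries. ZNF583 had 54, 57 and 51 counts there, at the upper end of the polarized range of 31 to 58 counts (0.28 ± 0.19, adjusted p = 0.243). ZNF90 was not called either (0.22 ± 0.26, adjusted p = 0.506). ZNF415 was lower in not polarized cells (-1.13 ± 0.20, adjusted p = 3.01e-04), with 26 to 36 counts, still above the 1 to 12 of the CF libraries. ZNF578, which reached 10 counts in 2 polarized WT libraries and 1 not polarized library, was tested in neither fit.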

How the data were processed

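Counts per gene in 26 libraries are the authors' deposited whole numbers, aligned with HISAT2 to hg38 per the submitters' processing notes. The sources used here do not give versions, the counting tool, the strand setting or how reads matching several genes were treated. FPKM values are the authors' own deposited values and served only to describe levels. Libraries are from poly-A RNA, per the labels' protocols. Closely related zinc finger genes share sequence, and 154 of the 219 members overlap another annotated gene, so a share of reads may be assigned to a relative or an overlapping gene.

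The members and lists were chosen with earlier results of these data known. Members were split into clusters where gene starts lay over 1 Mb apart. Counts were tested with edgeR 4.0.16 (R 4.3.3; TMM scaling, filterByExpr with a minimum count of 10 and a total of 15, robust quasi-likelihood F-test) in 1 fit of the 4 polarized groups (23 libraries), and in another of WT normal glucose and not polarized cells (9 libraries). P-values were adjusted by Benjamini-Hochberg over all genes tested, and a gene was called at an adjusted p below 0.05. CPM of members are on TMM-adjusted library sizes, computed separately for each fit. The WT normal glucose libraries therefore have slightly different CPM in the polarization comparison (for ZNF581 a mean of 15.3, against 14.9 elsewhere). Genes at 0 in a group have a bound at 3 counts over that group. Ratios with 95% exact binomial intervals use summed counts.

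Named members were the 10 lowest and up to 10 highest by line (called alike at both levels, lines not overlapping, at least 1 CPM), up to 5 per direction for glucose (by p) and polarization (by fold), the lowest p of the difference in glucose response, the 5 highest by FPKM, and ZNF91, ZNF93 and ZFP36. Other members are named for their place beside these. The tests were checked on simulated data. Alternatives were DESeq2 1.42.0, RLE scaling, other filters, other libraries in the fit, a block or batch term, either set of library numbers alone, each library left out, and members that overlap no other gene. Fingers and KRAB boxes were searched in the longest open reading frame of GENCODE 29 transcripts. Promoters were aligned with Biopython 1.88.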

Additional observations from a re-analysis of the deposited data

Results flagged for a closer look

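In 113 groups of 5 or 6 libraries of the members described above, 7 held a library far from the others by Dixon's test, which chance alone gives in about 1 of 20 groups. ZNF563 had 2.27 CPM in WT normal glucose library 3, where the other 5 had 1.08 to 1.37, and 1.49 CPM in CF high glucose library 1, where the others had 0.552 to 0.893. ZNF43 had 6.98 CPM in WT normal glucose library 2 (others 3.51 to 4.77) and 0.119 CPM, 2 counts, in CF high glucose library 3, where the others had 0. ZNF665 had 0.114 CPM, also 2 counts, in CF high glucose library 4, where the others had 0. ZNF320 had 4.59 CPM in WT normal glucose library 4 (others 3.34 to 3.69). ZNF787 had 54.8 CPM in CF normal glucose library 3 (others 45.6 to 49).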

How the results depend on the processing

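Over the settings other than leaving libraries out and restricting members, 51 to 74 members were called in CF against WT in normal glucose. In high glucose 50 to 68 were, and 37 to 54 were lower at both levels. The 74 and the 50 came from libraries 4 to 6 alone. There all genes gave 2602 higher and 2507 lower of 16874 in normal glucose, and 2257 and 2445 in high glucose. The 51 came from libraries 1 to 3 alone, beside 1831 higher and 1819 lower of 15979 genes. The 68 came from the batch term, beside 2516 higher and 2457 lower over all genes. Members overlapping no other gene (65 tested) gave 19 and 16 calls, 15 lower at both levels and 1 lower by log2 4 or more, with 32 calls for polarization and 3 for glucose in CF, from fewer genes tested. The shares over all genes were 24.4% and 19.9% for the lines and 8.02% for lower at both levels. They were 0.251% for lower by log2 4 or more, 50.0% for polarization and 8.41% for glucose in CF. For glucose in WT (1 call), DESeq2 gave 3, the stricter filter 2, other libraries in the fit 2, libraries 1 to 3 alone 2, libraries 4 to 6 alone 2 and the batch term 6. For glucose in CF (6 calls), other libraries in the fit gave 2, the batch term 17 and libraries 4 to 6 alone 19. Calls over all genes moved as well. With the batch term they went from 244 higher and 240 lower to 674 and 744 in WT. In CF they went from 698 and 676 to 1392 and 1420 with the batch term. Libraries 4 to 6 alone gave 926 and 1404 in CF, and other libraries in the fit 522 and 546. The difference between the lines in glucose response gave 0 calls, and 1 in libraries 4 to 6 alone. The causes were not tested.

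With the replicate block, calls were 70 and 64 for the lines, 6 and 15 for glucose in WT and CF, 0 for their difference and 106 for polarization. Over all genes the block gave 2742 higher and 2681 lower for the lines in normal glucose, where 1862 and 2117 were called without it. For the lines in high glucose it gave 2331 and 2260 (1528 and 1725 without it). For polarization it gave 4283 and 4602 (3859 and 4188 without it). Same-numbered libraries were not taken as pairs: their deviations correlated by 0.193 to 0.309 on average in the 4 comparisons of polarized cells, with a lowest pair of 0.0644, and by -0.00464 in the polarization comparison, and libraries of the same set but another number correlated as much. The block and the batch term both remove the difference between library sets.

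Leaving out 1 library at a time gave 55 to 62 and 49 to 58 calls for the lines, 0 to 2 and 3 to 8 for glucose in WT and CF, 82 to 108 for polarization, 45 to 52 members lower at both levels and 10 to 13 lower by log2 4 or more. With no library left out, 24.4% and 19.9% of all genes were called for the lines and 2.96% and 8.41% for glucose. The shares of all genes were 50.0% for polarization, 8.02% for lower at both levels and 0.251% for lower by log2 4 or more. The WT glucose call fell to 0 without WT high glucose library 2 or 3 or WT normal glucose library 4 or 6, and the CF calls to 3 without CF high glucose library 3 or CF normal glucose library 4, 5 or 6. Over all alternatives, 1536 of 1630 values of named members kept their side of the threshold and 0 reversed. The 26 lost calls in high glucose between the lines were of ZNF799, ZNF428, ZNF581, ZNF551, ZNF563 and ZNF780B. Without the low-count filter the median of all genes in the polarization comparison was -0.13 and that of the members -0.28. Members near 0 in CF have under 60 counts in most WT libraries, so their true ratio cannot be told beyond the bounds given.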
